A study of Mus musculus with 16 samples.

Results

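Metallothioneins are small, cysteine-rich proteins that bind zinc and copper. Mt1 and Mt2 are switched on by metals through metal response elements read by MTF1, and also by glucocorticoids and inflammation. Nrf2, the product of Nfe2l2, is a transcription factor that is held in check by Keap1 and that, under oxidative stress, binds antioxidant response elements beside genes of glutathione synthesis, thioredoxin recycling, quinone reduction and heme breakdown. Mutant SOD1, an enzyme that itself binds copper and zinc, causes a familial form of amyotrophic lateral sclerosis (ALS), a disease in which motor neurons of the spinal cord die.

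The genes described here are the metallothioneins Mt1, Mt2 and Mt3, the transcription factor gene Nfe2l2 and the Nrf2 targets Hmox1, Nqo1, Gclc, Gclm and Txnrd1. They were found by their gene name among the spots of the arrays that are not controls, which gave 9 of 27962 gene names, with 13 of 41174 probes and 22 of 43379 spots. The samples were whole lumbar spinal cord of male B6SJL mice on 16 two-colour whole mouse genome arrays. There were 4 groups of 4 arrays, namely non-transgenic wild-type mice at 40 days, SOD1G93A mice at 40 days, wild-type mice at 80 days and SOD1G93A mice at 80 days. SOD1G93A mice carry mutant human SOD1 as a transgene in addition to their own Sod1 gene, and both ages precede the clinical signs according to the study. The labels call the 4 samples of a group biological replicates, without an animal for each, so the p-values measure the spread between these samples. The Cy3 channel held the cord sample and the Cy5 channel a reference shared by all arrays, a pool of neonatal heart, kidney and liver RNA of both genotypes. There was no dye swap.

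Between 46.1% and 55.3% of probes were well above background in Cy3 on an array. The median local background of an array in Cy3 was 35 to 38 units. Precision was set by there being 4 arrays in a group. Replicate n of every group lay on slide n, and each group held the same position on every slide, so that position and group cannot be told apart. Of the 9 marker lists set beside the genes, all 8 neuron markers, 7 oligodendrocyte markers and 8 astrocyte markers had a mean log2 ratio above 0 against the reference, whereas 0 of the 4 measured liver markers had. With arrays centred on the median in place of loess these counts were 8 of 8, 7 of 7, 7 of 8 and 0 of 4. The probe for mouse Sod1 does not report on the transgene as such, and it gave a genotype difference of -0.01 at 40 days and -0.17 at 80 days on the log2 scale. Bulk cord cannot tell fewer cells of a type from less RNA per cell.

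The 3 metallothionein probes lay close together on chromosome 8. The lead probe of Mt3 was at chr8:92743071-92743130 and that of Mt2 at chr8:92762515-92762574, and that of Mt1 was at chr8:92769155-92769214, all on the plus strand of build mm7. The probe starts of Mt3 and Mt2 were 19444 bases apart and those of Mt2 and Mt1 6640 bases apart. The lead probe of Mt1, the 1 probe printed on 10 spots, is shown because it lies in the part of the gene that makes these proteins what they are. Capitals mark its TGC and TGT triplets, the codons of cysteine, which were 6 of the 19 triplets in the reading frame that holds most of them:
Mt1 lead probe: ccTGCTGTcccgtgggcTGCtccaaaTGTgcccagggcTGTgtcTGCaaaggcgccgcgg

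The promoters of the 3 metallothioneins are shown as a description of their letters. The part of any motif in how these genes varied over the arrays was not tested. Each sequence covers 250 bases before to 50 after the gene's start in RefSeq, on build GRCm38.p6, plus strand. Capitals mark matches on either strand to the core of the metal response element, searched as TGCACNC and TGCGCNC, and to the antioxidant response element, searched as TGACNNNGC.
Mt1, chr8:94178839-94179138: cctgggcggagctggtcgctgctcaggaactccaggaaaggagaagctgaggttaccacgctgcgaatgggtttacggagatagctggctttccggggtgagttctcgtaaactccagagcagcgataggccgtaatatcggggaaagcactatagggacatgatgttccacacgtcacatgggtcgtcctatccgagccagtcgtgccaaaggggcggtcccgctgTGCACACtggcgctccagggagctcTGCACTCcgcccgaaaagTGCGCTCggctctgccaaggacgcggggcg
Mt2, chr8:94172368-94172667: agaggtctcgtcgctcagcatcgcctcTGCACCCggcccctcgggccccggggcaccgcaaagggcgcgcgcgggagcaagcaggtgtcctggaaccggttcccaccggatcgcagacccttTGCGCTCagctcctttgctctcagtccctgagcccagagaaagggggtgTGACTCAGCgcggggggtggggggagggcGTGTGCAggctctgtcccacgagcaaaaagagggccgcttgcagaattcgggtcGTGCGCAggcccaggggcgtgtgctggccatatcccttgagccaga
Mt3, chr8:94152357-94152656: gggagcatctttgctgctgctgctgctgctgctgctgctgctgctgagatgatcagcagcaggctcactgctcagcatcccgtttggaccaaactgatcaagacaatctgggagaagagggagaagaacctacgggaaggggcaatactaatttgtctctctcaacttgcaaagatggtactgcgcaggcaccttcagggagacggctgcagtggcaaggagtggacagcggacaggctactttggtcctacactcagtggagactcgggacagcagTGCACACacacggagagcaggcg

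Within the bases shown, the Mt2 promoter held 4 metal response cores and 1 antioxidant response element, the Mt1 promoter 3 metal response cores, and the Mt3 promoter 1 core. Sequence outside these bases was not searched, so the counts depend on the start used and do not show that a gene lacks a motif. Of all 32851 mouse promoters of this length, 25.7% held at least 1 metal response core, 0.517% held at least 4, and 12.4% held an antioxidant response element. Of the other genes, Nfe2l2, Gclm, Nqo1 and Txnrd1 had a matched promoter. Gclm held 3 metal response cores, as many as Mt1, and 1 antioxidant response element. Nfe2l2 and 1 of the Txnrd1 promoters held 1 antioxidant response element each and no metal response core. Nqo1 and the other Txnrd1 promoters held neither motif. Hmox1 and Gclc were not matched. A match describes letters and is not shown to be a bound site.

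All values that follow are log2 ratios of Cy3 to Cy5 after loess normalization, or differences between means of these. The reference was brighter than the cord sample for most probes, and loess sets the trend of each array to 0, so a ratio above 0 means above that trend for probes of that brightness. With arrays centred on the median in its place, the mean ratio of Mt1 over the 16 arrays moved from 1.90 to -0.61, that of Mt2 from 2.75 to 0.07 and that of Mt3 from 1.85 to -0.12, so that no direction against the neonatal organs is given for them. Ratios of different probes were not set against each other as levels.

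**Figure D1:**
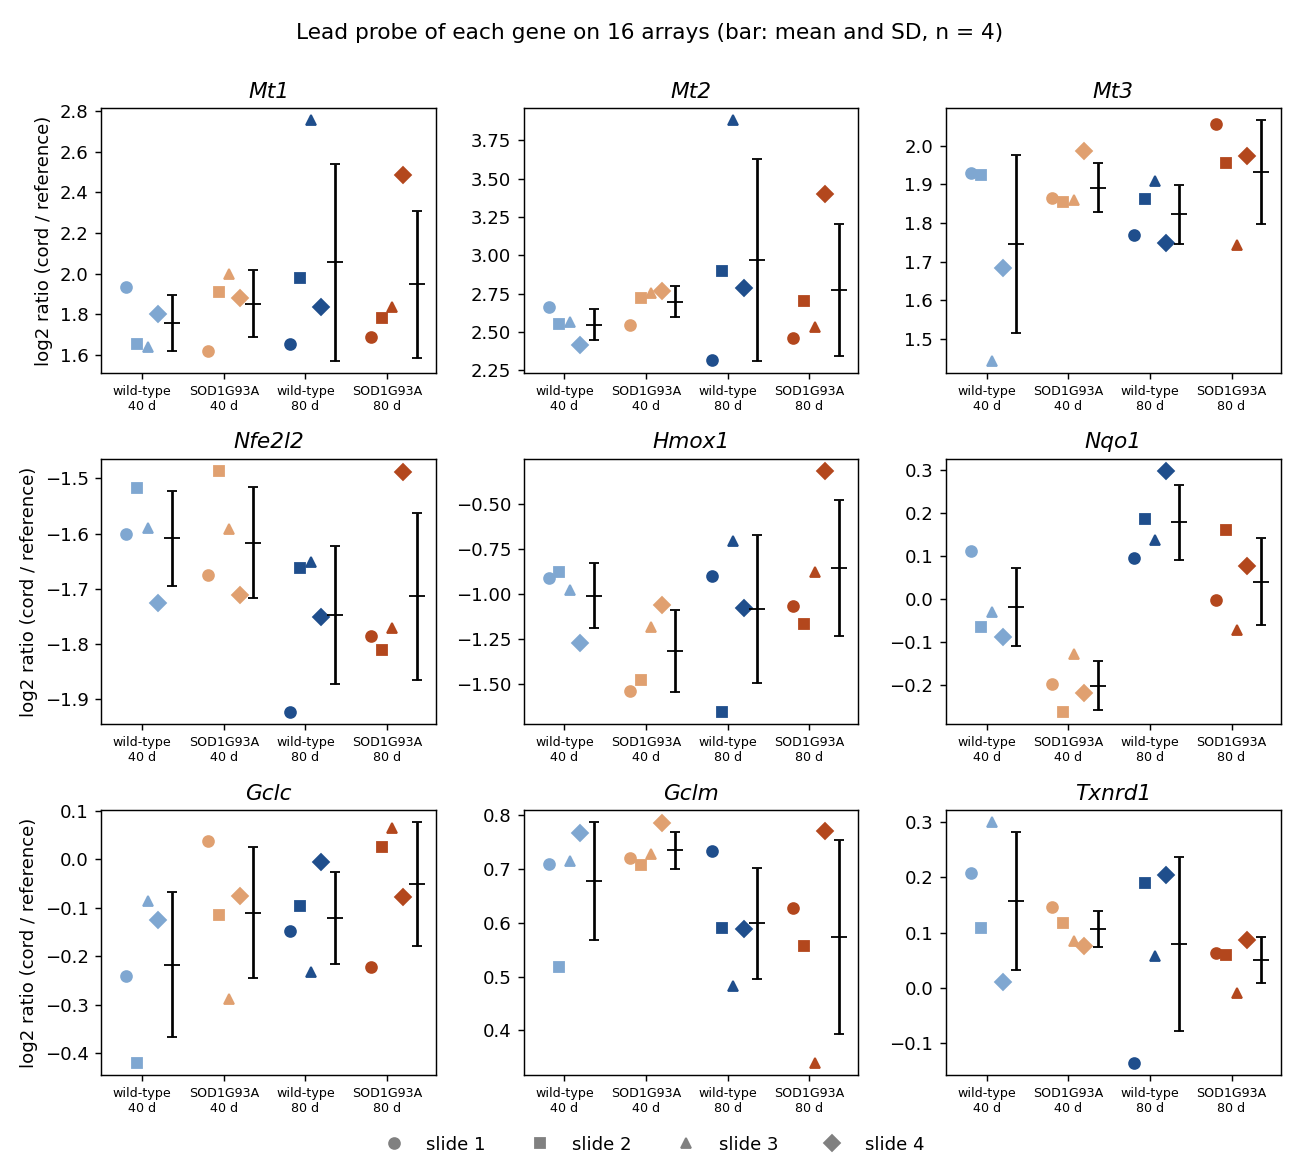
Log2 ratio of cord (Cy3) to reference (Cy5) for the lead probe of each of the 9 genes on 16 arrays. Each symbol is 1 array, its shape gives the slide, and the black bar beside each group is the mean with its SD (n = 4). Mt1 and Mt2 stood high on the wild-type array of slide 3 and the SOD1G93A array of slide 4 at 80 days, and Nqo1 was lower on every SOD1G93A array than on every wild-type array at 40 days.

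Mt1 and Mt2, the metal- and stress-inducible metallothioneins, did not differ between the genotypes beyond the spread between arrays at either age. Both stood high on 2 of the 16 arrays, 1 of each genotype, at 80 days. The Mt2 log2 ratios at 40 days were 2.66, 2.55, 2.57 and 2.42 in wild-type mice (replicates 1 to 4) and 2.55, 2.72, 2.76 and 2.77 in SOD1G93A mice. At 80 days they were 2.32, 2.90, 3.88 and 2.79 in wild-type mice and 2.46, 2.70, 2.54 and 3.40 in SOD1G93A mice. Wild-type replicate 3 and SOD1G93A replicate 4 at 80 days therefore lay above all other arrays, whose range was 2.32 to 2.90, and the groups overlapped at each age. The Mt1 ratios followed the same course, with 1.93, 1.65, 1.64 and 1.80 in wild-type mice and 1.62, 1.91, 2.00 and 1.88 in SOD1G93A mice at 40 days. At 80 days Mt1 was at 1.65, 1.98, 2.75 and 1.84 in wild-type mice and at 1.69, 1.78, 1.84 and 2.48 in SOD1G93A mice. The same arrays were again the highest.

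The high values lay in the cord channel. The Mt2 spot read 17576 units in Cy3 on wild-type replicate 3 and 16028 on SOD1G93A replicate 4 at 80 days, against 7264 to 10377 on the other 14 arrays, while Cy5 read 22714 and 23650 there against 15689 to 25245. The spots of the Mt1 lead probe that were not outliers, 10 on each array but 1 and 8 on that one, agree closely, with SDs between spots of 0.02 to 0.07, and its lowest spot on these arrays, at 2.62 and 2.38, was above the highest spot of any other. The second Mt1 probe, dimmer and 167 bases upstream in mm7, was high on wild-type replicate 3 (1.14) but not on SOD1G93A replicate 4 (0.44), with 0.23 to 0.85 on the other arrays. This probe read only 60 to 103.5 units in Cy3, and 70 on SOD1G93A replicate 4, where median backgrounds were 35 to 38. The lead probe read 2834 to 6264 units, so the second probe is the weaker measure of Mt1. SOD1G93A replicate 4 at 80 days was also the array with the most bright local backgrounds in Cy3, which were reset at 63 spots, and wild-type replicate 3 had 0.

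The genotype differences in the metallothioneins were small beside this spread. Mt2 was 0.15 higher in SOD1G93A mice at 40 days (95% interval -0.01 to 0.31, SE 0.07, limma p = 0.0636, adjusted p = 0.998, exact permutation p = 0.114) and 0.20 lower at 80 days (interval -0.88 to 0.48, limma p = 0.534, exact permutation p = 0.629). Mt1 was 0.09 higher at 40 days (interval -0.12 to 0.31, limma p = 0.337, exact permutation p = 0.4) and 0.11 lower at 80 days (interval -0.64 to 0.42, limma p = 0.659, exact permutation p = 0.6), and its second probe differed by 0.05 and -0.07. At 40 days Mt2 passed an unadjusted p under 0.05 without wild-type replicate 1 (0.19) or SOD1G93A replicate 1 (0.20), and on Cy3 alone the difference was 0.02. Without wild-type replicate 3, the signs at 80 days turned, to 0.11 for Mt2 and 0.12 for Mt1, and without SOD1G93A replicate 4 the differences were -0.40 and -0.29. Without both high arrays the differences at 80 days were -0.10 for Mt2 and -0.05 for Mt1. The SDs within groups at 40 days were 0.10 for Mt2 in each genotype, against 0.66 in wild-type and 0.43 in SOD1G93A mice at 80 days.

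Mt1 and Mt2 varied together over the arrays within groups. After subtraction of group means, Pearson's r between the lead probes over 16 arrays was 0.95 (permutation p = 1e-05, the smallest that 100000 resamples can give, adjusted over 36 pairs 0.00036) and Spearman's rho was 0.87 (permutation p = 2e-05, adjusted 0.00072). Without the 2 high arrays r was 0.82 over 14 arrays, and with slide means also subtracted it was 0.94. The 2 genes share the reference and the normalization, and the reach of the Mt1 probe to Mt2 transcripts was not tested. Of the other 35 pairs, Mt2 with Nfe2l2 gave r = 0.71 (permutation p = 0.00156, adjusted p = 0.0281) and rho = 0.63 (permutation p = 0.0102, adjusted p = 0.0922), with r = 0.62 without the high arrays. Mt1 with Mt3 gave r = 0.27 (permutation p = 0.301, adjusted p = 0.729) and rho = 0.31 (permutation p = 0.238, adjusted p = 0.504), with r = 0.67 once slide means were also subtracted.

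The genes outside the set whose log2 ratio was most like Mt1 over the 16 arrays, among 15430 genes, were Endou (r = 0.92), Maff (r = 0.90) and Tlr7 (r = 0.90). Those most like Mt2 were Cotl1 (r = 0.90), Maff (r = 0.89) and Tlr7 (r = 0.88). Maff encodes a small Maf protein, a class that partners Nrf2 on DNA, and Tlr7 a receptor for single-stranded RNA found on immune cells. Maff was at -1.25 on wild-type replicate 3 and -1.65 on SOD1G93A replicate 4 at 80 days, against -2.31 to -1.91 on the other arrays, and Tlr7 at 0.26 and 0.30, against -0.35 to -0.09. These correlations rank genes on the same 16 arrays. Without the 2 high arrays r over 14 arrays was 0.59 for Endou, 0.45 for Maff and 0.47 for Tlr7 with Mt1, and 0.36 for Cotl1, 0.35 for Maff and 0.48 for Tlr7 with Mt2. Spearman's rho over the 16 arrays was 0.49 to 0.76 for these pairs. Mt3, the metallothionein made mainly in brain and cord, was most like Tmem59l (r = 0.80), Rai16 (r = 0.73) and 2310033P09Rik (r = 0.73), none of which stood high on both arrays.

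Microglia markers were high on the same arrays. The median deviation of the 8 markers from their mean was 0.45 on wild-type replicate 3 and 0.79 on SOD1G93A replicate 4 at 80 days, and between -0.24 and 0.09 on the other 14. For 7 of the 8 markers both arrays were among the 3 highest of the 16. C1qa, the complement component, was at 2.22 and 2.33 against 0.65 to 1.32 elsewhere, Aif1 (Iba1) at 1.72 and 1.67 against 0.52 to 0.90, and Cd68, a lysosomal protein of phagocytes, at 0.74 and 1.07 against -0.23 to 0.16. Not every marker lay clear of the other 14 arrays. Itgam was at 0.22 on wild-type replicate 3, below the 0.29 reached elsewhere. Tmem119 was at -0.778 on SOD1G93A replicate 4, below the -0.773 reached elsewhere. P2ry12, a receptor of resting microglia, was the exception by rank, with 0.86 on wild-type replicate 3, the lowest of all arrays, and 1.49 on SOD1G93A replicate 4. The astrocyte marker score was 0.11 and 0.02 on these arrays, within the range of -0.19 to 0.21 on the others. Of its 8 genes, 2 were highest on wild-type replicate 3 (Gfap and Slc1a3) and 1 on SOD1G93A replicate 4 (Aqp4). Only for 1, Gfap, were both arrays among the 3 highest, at 6.79 and 6.61 against 6.12 to 6.62. Gja1 and S100b ranked 14 of the 16 on wild-type replicate 3. The glucocorticoid-responsive genes gave 0.37 on wild-type replicate 3 and 0.04 on SOD1G93A replicate 4, against -0.12 to 0.13. Of these 10 genes, 4 were highest on wild-type replicate 3 and 0 on SOD1G93A replicate 4. Plin4 was at 0.43 and -1.77 on these arrays, against -2.53 to -1.51. Tsc22d3 went the other way, at 0.69 and 0.57 against 0.59 to 1.13. The part of these genes' sources in the metallothionein values was not tested.

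**Figure D2:**
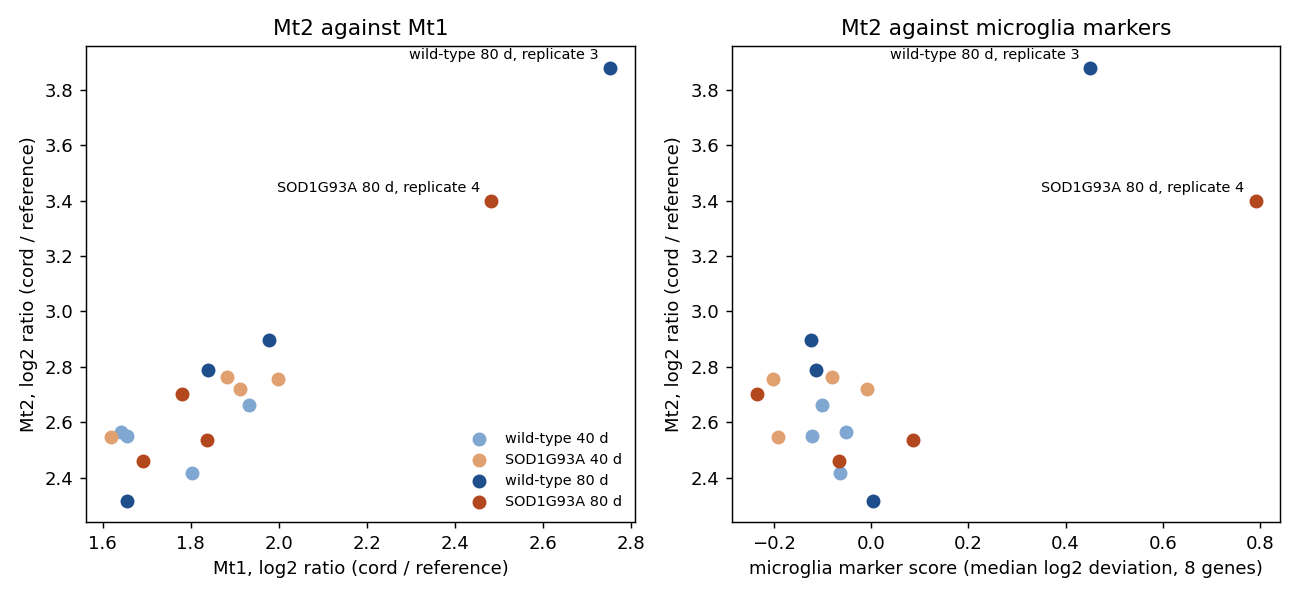
Mt2 log2 ratio on 16 arrays against the Mt1 log2 ratio (left) and against the microglia marker score, the median log2 deviation of 8 genes (right). Each point is 1 array coloured by group, and the 2 arrays named in the panels lie apart from the other 14 on all axes (Mt2 at 3.88 and 3.40 against 2.32 to 2.90).

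Mt3 did not differ between the genotypes beyond the spread between arrays. Its log2 ratios were 1.93, 1.92, 1.44 and 1.68 in wild-type and 1.87, 1.85, 1.86 and 1.99 in SOD1G93A mice at 40 days, and 1.77, 1.86, 1.91 and 1.75 and then 2.06, 1.95, 1.74 and 1.97 at 80 days. The low array was wild-type replicate 3 at 40 days. SOD1G93A minus wild-type was 0.15 at 40 days (interval -0.08 to 0.38, limma p = 0.188, exact permutation p = 0.371) and 0.11 at 80 days (interval -0.06 to 0.28, limma p = 0.19, exact permutation p = 0.2). The 40-day difference was 0.05 without the low array and 0.07 with arrays centred on the median. The 80-day difference was 0.17 without SOD1G93A replicate 3 and 0.16 with median centring, both past the unadjusted threshold, 0.07 without SOD1G93A replicate 1, and 0.06 on Cy3 alone. At 40 days 4 of 8 astrocyte markers were higher in SOD1G93A mice with p under 0.05, among them Gfap (0.24) and S100b (0.25). Over all probes, 4.47% passed there in either direction. The median over the list was 0.19, against 0.0029 over all probes tested. At 80 days, where 6.86% of all probes passed, 0 of the 8 markers passed as higher and 1 as lower. The list median there was -0.07, against -0.0012 over all probes. The part of astrocyte content in the Mt3 values was not tested.

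Nqo1 and Hmox1, both Nrf2 targets, were lower in SOD1G93A than in wild-type cord at 40 days at an unadjusted p under 0.05. They were 2 of the 9 genes tested by their lead probes, and 4.47% of all 21338 probes passed this threshold at 40 days. No probe passed after Benjamini-Hochberg adjustment (adjusted p = 0.998 for both). Nqo1 encodes a quinone reductase and Hmox1 heme oxygenase-1, the inducible enzyme that opens the heme ring.

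The Nqo1 log2 ratios at 40 days were 0.11, -0.07, -0.03 and -0.09 in wild-type mice and -0.20, -0.26, -0.13 and -0.22 in SOD1G93A mice. The groups did not overlap, as was the case for 2.83% of probes. The difference was -0.18 (interval -0.32 to -0.05, SE 0.06, limma p = 0.0133), with an exact permutation p = 0.0286, the smallest that 4 against 4 arrays allow, and it was below 0 on each of the 4 slides, from -0.31 to -0.10. Both channels moved in the ratio. Raw Cy3 signals overlapped, with 92 to 131 units in wild-type and 89.5 to 102.5 in SOD1G93A mice, and raw Cy5 signals of the shared reference were 664 to 902 and 807 to 957. On Cy3 alone the difference was -0.07 and in the values as processed by the authors it was -0.04, and neither passed the threshold.

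At 80 days Nqo1 was at 0.09, 0.19, 0.14 and 0.30 in wild-type and at -0.0024, 0.16, -0.07 and 0.08 in SOD1G93A mice, and the groups overlapped. The difference was -0.14 (interval -0.30 to 0.02, limma p = 0.0838, exact permutation p = 0.114), again below 0 on each of the 4 slides, from -0.22 to -0.02. The difference between the ages in the genotype effect was 0.04 (interval -0.15 to 0.24, limma p = 0.631, exact permutation p = 0.713).

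The Hmox1 log2 ratios at 40 days were -0.91, -0.88, -0.98 and -1.27 in wild-type mice and -1.54, -1.48, -1.18 and -1.06 in SOD1G93A mice. The groups overlapped by way of wild-type replicate 4, which lay below SOD1G93A replicates 3 and 4. The difference was -0.31 (interval -0.58 to -0.04, SE 0.12, limma p = 0.03, exact permutation p = 0.0857), and on slide 4 it was 0.21 in the opposite direction. With the slide as a replicate block it no longer passed (limma's unadjusted p rose above 0.05), nor did it without wild-type replicate 1, 2 or 3 or without SOD1G93A replicate 1 or 2, when it was between -0.30 and -0.23. On Cy3 alone it was -0.26 and in the values as processed by the authors -0.20, and neither passed. The Hmox1 probe was dim. Its raw Cy3 signals at 40 days were 96.5 to 141.5 units in wild-type and 81.5 to 113 in SOD1G93A mice. At 80 days Hmox1 was at -0.90, -1.65, -0.71 and -1.08 in wild-type and at -1.07, -1.16, -0.88 and -0.32 in SOD1G93A mice, the last of these on the array high in Mt1 and Mt2. The difference at 80 days was 0.23 (interval -0.26 to 0.71, limma p = 0.327, exact permutation p = 0.457), and it was 0.04 without wild-type replicate 2 and 0.05 without SOD1G93A replicate 4. The change of the genotype difference from 40 to 80 days was 0.53 (interval -0.05 to 1.11, limma p = 0.0708, exact permutation p = 0.0971). At 40 days the median difference of 6 meningeal fibroblast markers was -0.67, against 0.0029 over all probes, with 0 of 6 past the threshold. Their median deviation varied widely between arrays, from -1.13 to 1.00 in wild-type and from -1.02 to 0.31 in SOD1G93A mice. The part of these markers in the Hmox1 value was not tested.

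Nfe2l2 itself differed little between the genotypes. Its lead probe lay between -1.92 and -1.49 on the 16 arrays, and the difference was -0.0082 at 40 days (interval -0.16 to 0.14, limma p = 0.906, exact permutation p = 0.943) and 0.03 at 80 days (interval -0.17 to 0.24, limma p = 0.721, exact permutation p = 0.8). The bright probe beside it gave 0.0029 and 0.03, and a dimmer probe elsewhere in the gene gave 0.03 and -0.10, with intervals that hold 0. The remaining probe was not well above background in Cy3 on any of the 16 arrays and was not tested, so 12 of the 13 probes and all 9 genes passed the filter on low signal.

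The glutathione and thioredoxin enzymes showed no genotype difference beyond the spread between arrays. Gclc, the catalytic subunit of the enzyme that limits glutathione synthesis, ranged from -0.42 to 0.06 and differed by 0.11 at 40 days (interval -0.09 to 0.31, exact permutation p = 0.343) and by 0.07 at 80 days (interval -0.11 to 0.24, exact permutation p = 0.4). Its modifier subunit Gclm ranged from 0.34 to 0.78 and differed by 0.06 (interval -0.08 to 0.20, exact permutation p = 0.371) and by -0.03 (interval -0.23 to 0.18, exact permutation p = 0.914). The Gclm probe was dim, at 70.5 to 95 units in Cy3 where median backgrounds were 35 to 38, so its differences are less sure. Txnrd1, the cytosolic thioredoxin reductase, ranged from -0.14 to 0.30 and differed by -0.05 (interval -0.20 to 0.10, exact permutation p = 0.514) and by -0.03 (interval -0.21 to 0.15, exact permutation p = 0.857).

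**Figure D3:**
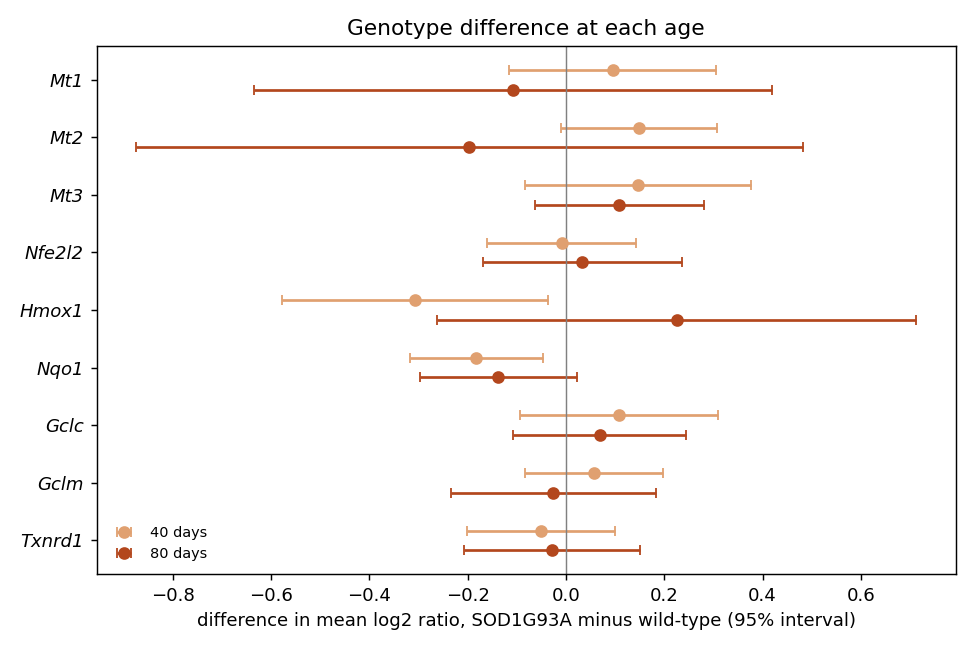
Difference in mean log2 ratio between SOD1G93A and wild-type cord for the lead probe of each gene at 40 and 80 days, with its 95% interval from limma (4 arrays against 4). The intervals of Hmox1 (-0.58 to -0.04) and Nqo1 (-0.32 to -0.05) at 40 days leave out 0, and the widest, at 80 days, belong to Mt1, Mt2 and Hmox1.

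Of the 9 lead probes, 0 passed the threshold at 80 days, where 6.86% of 21603 probes did and 4.31% did not overlap between genotypes, and 0 passed for the difference between the ages, where 6.68% of probes did. The smallest unadjusted p were 0.0838 for Nqo1 at 80 days and 0.0708 for Hmox1 in the comparison of ages.

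Calls in the wider pathway lists are to be read against the 4.47% of all probes that passed at 40 days and the 6.86% at 80 days, shares at which lists this short hold few calls or none. Of 25 other Nrf2 target genes, such as Srxn1, Slc7a11 and Gsr, 0 passed p under 0.05 at 40 days (median difference -0.01) and 0 at 80 days (0.03), where the medians over all probes were 0.0029 and -0.0012. Of 17 glutathione and thioredoxin genes, 20 tested genes of zinc and copper handling and 9 of heme and iron, 0 passed at either age. Of the 10 Nrf2 partners and inhibitors, 0 passed at 40 days and 1 at 80 days, Bach1, a repressor that competes with Nrf2 for the same elements, at -0.22 (SE 0.08, limma p = 0.0254, adjusted p = 0.708, exact permutation p = 0.0571). Of 10 glucocorticoid-responsive genes, Cdkn1a alone passed at 40 days, at -0.18 (limma p = 0.0322, adjusted p = 0.998, exact permutation p = 0.0286), and 0 at 80 days.

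Nqo1 was higher at 80 than at 40 days in both genotypes. The difference was 0.20 in wild-type mice (interval 0.06 to 0.33, SE 0.06, limma p = 0.00778, adjusted p = 0.152, exact permutation p = 0.0571) and 0.24 in SOD1G93A mice (interval 0.10 to 0.38, SE 0.06, limma p = 0.00179, adjusted p = 0.0789, exact permutation p = 0.0286). The 4 arrays of each age did not overlap in SOD1G93A mice, as held for 12.6% of probes there, and did overlap in wild-type mice, where 7.77% of probes did not. With arrays centred on the median the wild-type difference was 0.05 and did not pass. In these comparisons 1 of the 9 genes passed in wild-type mice, where 15.3% of probes did, and 2 of 9 in SOD1G93A mice, where 17.2% did.

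The other was Hmox1, higher at 80 days in SOD1G93A mice by 0.46 (interval 0.05 to 0.87, SE 0.19, limma p = 0.0317, adjusted p = 0.243, exact permutation p = 0.0857). Without SOD1G93A replicate 4 at 80 days the difference was 0.28 and did not pass, nor did it pass without SOD1G93A replicate 1 or 2 at 40 days, when it was 0.38 and 0.40, and with array weights it was 0.35 and with bright backgrounds left 0.41, neither past the threshold. The remaining 8 genes in wild-type mice changed by -0.14 to 0.42, with Mt2 at the upper end (0.12 without wild-type replicate 3 at 80 days), and the remaining 7 in SOD1G93A mice by -0.16 to 0.10, with p above 0.05 for each. Both age comparisons and the genotype comparisons draw on the same arrays. In the wider lists, 9 of the 25 other Nrf2 targets passed between the ages in wild-type mice (6 higher and 3 lower at 80 days), beside 15.3% of all probes, and 8 in SOD1G93A mice (5 higher and 3 lower), beside 17.2%. Of 20 zinc and copper genes 5 passed in wild-type and 3 in SOD1G93A mice, the latter near the share over all probes, and those that passed were lower at 80 days.

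**Figure D4:**
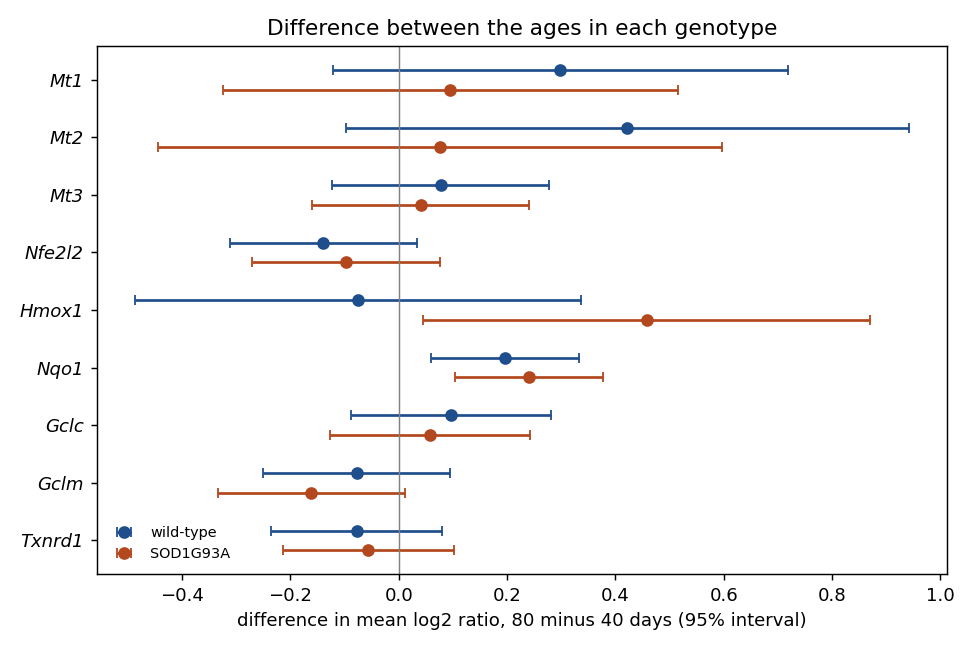
Difference in mean log2 ratio between 80 and 40 days for the lead probe of each gene in wild-type and SOD1G93A cord, with its 95% interval from limma (16 arrays in the fit). Nqo1 was higher at 80 days in both genotypes, by 0.20 and 0.24, and the intervals of Mt1 and Mt2 are wide.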

How the data were processed

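The authors hybridized cord RNA (Cy3) and the neonatal organ reference (Cy5) and extracted spots with Agilent Feature Extraction 9.5.3.1, per the file headers. The deposited spot signals and backgrounds are intensity values on a linear scale, not normalized. The authors' processed table holds log2 values that follow Cy3 alone and was used as an alternative for genotype differences. Signals were read in R 4.3.3. Local backgrounds over 20 units above their own spot were set to the array's median, and limma 3.58.1 then applied normexp (offset 50), loess with weight 0 for controls and outliers, and Aquantile. Spots of a probe were averaged, outlier spots left out, and probes well above background in Cy3 on 3 arrays of a compared group tested with lmFit and eBayes, unadjusted p under 0.05 as in the study's methods, with Benjamini-Hochberg adjusted p over all probes. Genotype fits used the 8 arrays of an age, age fits all 16. Exact permutation tests were two-sided. A gene's lead probe is its brightest. Genotype differences are printed for every tested probe, age differences singly where p was under 0.05, and from each pathway list up to 3 genes with the smallest p under 0.05 in a genotype comparison. The genes most like a metallothionein were ranked by Pearson's r over 16 arrays. Marker genes named beside Mt1, Mt2, Mt3 and Hmox1, and Plin4 and Tsc22d3, were chosen after their values were seen. The scripts were tested on simulated data. Genes and lists were chosen with earlier results of these data known. Coordinates of probes are those of the array files (mm7).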

Additional observations from a re-analysis of the deposited data

Results flagged for a closer look

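In 52 groups of 4 arrays (13 probes in 4 groups), 3 arrays lay apart from the rest of their group by Dixon's criterion for 4 values, and chance gives about 1 such group in 20. The second Mt1 probe was at 0.84 on SOD1G93A replicate 3 at 80 days, while the other 3 arrays were at 0.39 to 0.44. Mt3 was at 1.99 on SOD1G93A replicate 4 at 40 days, against 1.85 to 1.87. The lead probe of Nfe2l2 was at -1.49 on SOD1G93A replicate 4 at 80 days, the array also high in Mt1, Mt2 and microglia markers, against -1.81 to -1.77 on the others. The high Mt1 and Mt2 values at 80 days did not meet the criterion.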

How the results depend on the processing

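Without background subtraction and without the filter on dim probes, the counts of the 9 genes that passed were as reported, 2 at 40 days, 0 at 80 days, 0 for the difference between the ages, 1 between ages in wild-type and 2 in SOD1G93A mice. At 40 days 1 gene passed with bright backgrounds left as they were, 1 with the replicate block, 1 with the spread of all 16 arrays, and 0 on Cy3 alone and in the authors' processed values. At 80 days 1 passed with arrays centred on the median (Mt3) and 1 with the spread of all 16 arrays (Nqo1). For the difference between the ages 1 passed with median centring, 1 on Cy3 alone and 1 with array weights. Between ages 2 passed in wild-type mice on Cy3 alone, 2 without both arrays high in Mt1 and Mt2 (an alternative chosen after seeing the data), and 1 in SOD1G93A mice with bright backgrounds left. Leaving out single arrays gave 1 to 2 at 40 days, 0 to 1 at 80 days, 0 to 1 for the difference between ages, and 1 to 3 between ages in each genotype. At 80 days 1 passed without SOD1G93A replicate 2 or 3. The replicate block changed no other genotype call. Same-numbered arrays did not deviate together throughout (correlations of -0.10 to 0.13 at 40 days and -0.02 to 0.19 at 80 days), so the numbers share a slide and are not known to pair animals. The cause of these changes was not tested.

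Differences near 0 turned sign. At 40 days the second Mt1 probe was -0.044 with bright backgrounds left, the bright second Nfe2l2 probe -0.055 with median centring, -0.040 on Cy3, -0.050 in the authors' values and -0.027 with array weights, and the dim Nfe2l2 probe -0.021 with median centring. At 80 days the Nfe2l2 lead probe was -0.017 with array weights and its neighbour -0.014 on Cy3 and -0.021 in the authors' values, Gclm was 0.0037 on Cy3 and Txnrd1 0.025 with median centring. Without both high arrays the second Mt1 probe was 0.13, the Nfe2l2 lead probe -0.010 and its neighbour -0.017. Leaving out single arrays at 40 days gave -0.049 to 0.16 for the second Mt1 probe, and -0.051 to 0.024, -0.052 to 0.028 and -0.0075 to 0.12 for the lead, the neighbouring and the dim Nfe2l2 probe. At 80 days it gave -0.29 to 0.12 for Mt1, -0.18 to 0.10 for its second probe, -0.41 to 0.11 for Mt2, -0.042 to 0.066 and -0.046 to 0.065 for Nfe2l2, -0.091 to 0.052 for Gclm and -0.10 to 0.013 for Txnrd1.

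Over all probes, 953 passed at 40 days, against 246 with bright backgrounds left, 559 on Cy3, 538 in the authors' values, 1881 without the filter and 1885 without wild-type replicate 4 (707 to 1885 without single arrays). At 80 days 1481 passed, against 2412 without the filter, 2378 with array weights and 971 without SOD1G93A replicate 3 (971 to 1829 without single arrays). For the difference between ages 1466 became 797 with bright backgrounds left and 2459 without the filter, and in wild-type mice 3289 became 5004 without it.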
